A study of Homo sapiens with 18 samples.

Results

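Prefoldin is a chaperone of the cytosol that is built from 6 different subunits, PFDN1, PFDN2, PFDN4, PFDN5, PFDN6 and VBP1 (also called prefoldin 3). URI1 and UXT are related proteins of a second, prefoldin-like complex. The distribution of the mRNAs of these 8 genes over a polysome gradient was read from a table of 13661 genes, in which each was found by its symbol. All 8 passed the filter on low counts (a mean of at least 10 reads per library and reads in each gradient), which kept 12720 genes.

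The study used HEK293, a widely used human cell line derived from embryonic kidney. In polysome profiling, lysate is spun through a sucrose gradient so that mRNAs separate by the number of ribosomes they carry. The control cells described here received DMSO vehicle for 12 h, and each of their 3 replicate gradients gave a fraction of monosomes, one of light polysomes and one of heavy polysomes. The series holds 18 libraries, and the 9 from cells given 100 µM minocycline, a tetracycline antibiotic, are not analysed here.

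The replicates are numbered 1 to 3 and labelled as batches 1 to 3, so every batch holds each fraction once. The labels do not say whether they were separate cultures, so the tests measure the spread between these gradients. Library totals ranged from 13447139 to 24441159 reads, and the 8 genes took 0.0682% to 0.180% of them. Each of the 8 had between 92 reads (PFDN6, monosome replicate 3) and 7247 reads in a library. All 8 HEK293 markers looked for were present, while 2 of 7 markers of blood, liver, endothelium and muscle were in the table, at a summed mean normalized count of 41.3 against 14097 for the HEK293 set. Light polysome replicate 2 stood apart: its profile across genes correlated at 0.899 and 0.889 with the other light libraries and at 0.928 to 0.953 with the heavy ones, and the monosome library of the same gradient held 3.87% mitochondrial mRNA against 26.0% and 19.5% in replicates 1 and 3. Results that turn on that gradient are therefore also given without it.

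Prefoldin captures newly made actin and tubulin and hands them to TRiC (also called CCT), the ring-shaped chaperonin that folds them. Its α-type subunits, VBP1 and PFDN5, form the core of a jellyfish-shaped particle, and its β-type subunits, PFDN1, PFDN2, PFDN4 and PFDN6, complete the set of tentacles. The prefoldin-like complex contains the α-type relatives URI1 and UXT together with PDRG1, and shares PFDN2 and PFDN6 with prefoldin. It associates with R2TP, a cochaperone built on the ATPases RUVBL1 and RUVBL2 that helps to assemble RNA polymerases and other large complexes.

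The 8 mRNAs are shown around their start codons, because ribosome load is set in part by how often ribosomes begin there. Each line gives 12 bases of leader, the start codon in capitals and 15 bases of coding sequence, 5′ to 3′, from the principal transcript in GENCODE 29 (GRCh38).
PFDN1: cagtgcaccaagATGgccgcccccgtggat
PFDN2: caggcggcgaagATGgcggagaacagcggt
PFDN4: tccagtcccaagATGgcggccaccatgaag
PFDN6: ttcatccccgccATGgcggagctgatccag
PFDN5: ggccttcccaacATGgcgcagtctattaac
VBP1: cgcatccccaagATGgcggccgttaaggac
URI1: cgcgggcccgtcATGgaggcgcccaccgtg
UXT: gaggagcccatcATGgcgacgccccctaag

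All 8 start codons had a purine 3 bases before the A and a G directly after the ATG, the arrangement known as a strong Kozak context, which 45.8% of 12421 kept genes had. PFDN1, PFDN4 and VBP1 also matched AAGATGGCNGC over the start codon, read on the mRNA strand. This motif was chosen after the sequences had been seen, and 199 kept genes (1.60%) carried it, with a median mean ribosome load of 3.43 against 3.22 for all genes with a start context. In RefSeq (GRCh38.p14), where 7 of the 8 genes had a promoter entry and PFDN2 had none, an annotated start lay 14 bases before the start codon of PFDN4, 23 before that of VBP1 (1 of 3 entries), 26 before that of PFDN5 and 28 before that of PFDN1. A start codon within 50 bases of a RefSeq start was found in 13.5% of 10359 kept genes. PFDN4 and VBP1 show that such short leaders are not the only models: their GENCODE principal transcripts have leaders of 254 and 117 bases, with 3 and 4 upstream ATGs.

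PFDN5 is the member whose RefSeq start begins with a C and an unbroken run of pyrimidines. Such letters mark the 5′ end of terminal oligopyrimidine (TOP) mRNAs such as those of ribosomal proteins. The GENCODE principal transcript of PFDN5 has a leader of only 16 bases, against 26 from the RefSeq start. It therefore begins downstream of that run and lacks it. PFDN5 is shown beside PFDN4, the member with the lowest ribosome load. Each line gives 10 bases before the RefSeq start and 20 from it, with any run of pyrimidines from the start in capitals. A C followed by 4 pyrimidines at the start occurred in 4.07% of 35116 promoter entries, and in no entry of the other 6 matched members.
PFDN5, chr12:53295532-53295561, plus strand: gagagacttcCTCTTCgttaagtcggcctt
PFDN4, chr20:54208077-54208106, plus strand: cgcctgcggtagtccagtcccaagatggcg

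The mRNAs of the prefoldin subunits did not travel together. Ribosome load was summarised by the authors as the mean ribosome load (MRL), a score between 1 and 6 obtained by weighting the share of an mRNA in monosomes by 1, in light polysomes by 2.5 and in heavy polysomes by 6. The mean MRL was 1.74 for PFDN4 and 3.92 for PFDN6, against a median of 3.17 ± 0.01 over all kept genes (SD, n = 3 gradients). The order of the means was PFDN4, UXT, PFDN5, PFDN1, URI1, PFDN2, VBP1, PFDN6. Neighbours in this order were mostly not separated: only the gaps from URI1 to PFDN2 (0.44) and from VBP1 to PFDN6 (0.64) exceeded the larger SD of the pair, and only URI1 and PFDN2 had ranges that did not overlap. Of the 28 pairs of members, 20 had the same order in all 3 gradients.

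**Figure D1:**
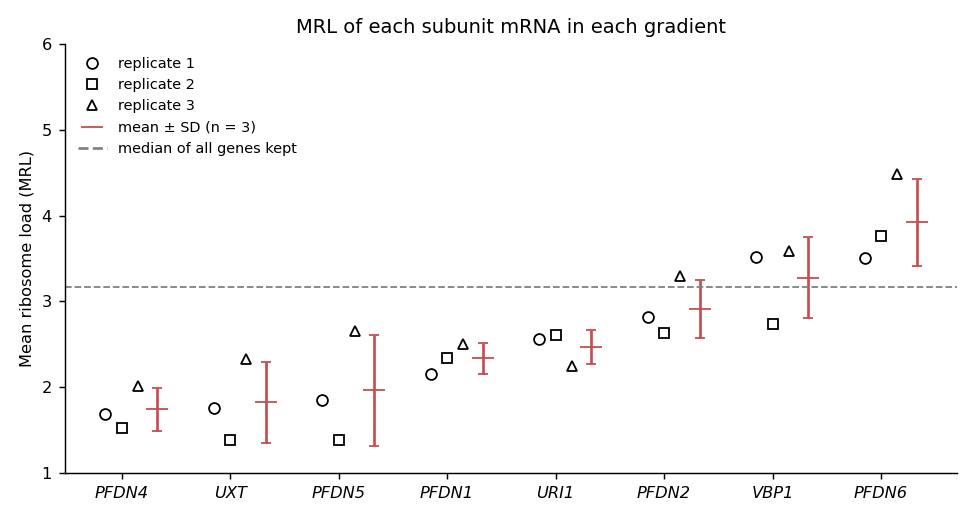
Mean ribosome load (score, y axis) of each of the 8 mRNAs (x axis, ordered by mean) in gradients 1 to 3 (symbols), with the mean ± SD in red and the median of all kept genes as a dashed line. PFDN4, UXT, PFDN5, PFDN1 and URI1 lay below 3.17 in every gradient, and PFDN6 lay above it in every gradient.

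Against the median gene of each gradient, 6 of the 8 mRNAs passed the threshold (limma, Benjamini-Hochberg adjusted p of 0.05 over 12720 genes): 5 were lower and 1 was higher. Of all kept genes, 46.7% passed, 24.7% lower and 22.0% higher, so passing is common. The lower side is where the members' count stands above this background, which is not matched for coding length. Most members have short coding sequences, and kept genes with 301 to 400 coding nt had a median MRL of 2.29. PFDN1, counted as lower, was above 53.0% of genes of like coding length. The median log2 difference was -0.40 over the 8 members and 0.01 over all kept genes. MRL and the shares of signal are relative between genes, because the counts of every fraction were scaled to the same typical gene. The fraction with the largest share is therefore not necessarily the one that held most of an mRNA.

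The β-type subunits covered the whole range. PFDN4 had MRLs of 1.68, 1.52 and 2.02 in gradients 1, 2 and 3, and 3.61% of kept genes had a lower mean. Its log2 difference from the median gene was -0.87 (SE 0.11, limma adjusted p = 0.000724). On average 62.8 ± 15.5% of its signal was in monosomes, 32.0 ± 14.9% in light polysomes and 5.19 ± 0.83% in heavy polysomes (SD, n = 3), so the share in heavy polysomes was both the smallest of the 8 and the least variable. Its normalized counts were 480, 302 and 693 in heavy polysomes, against 6993, 4625 and 5296 in monosomes. The groups were far apart, and the log2 difference was -3.58 (SE 0.52, limma adjusted p = 0.000179).

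PFDN1, another β-type subunit, was also low but less so. Its MRLs were 2.15, 2.34 and 2.51, a log2 difference from the median gene of -0.44 (SE 0.10, limma adjusted p = 0.00683). Its signal was split between monosomes (45.1 ± 7.43%) and light polysomes (40.3 ± 7.67%), with 14.6 ± 3.45% in heavy polysomes. Its normalized counts were 434, 544 and 730 in heavy polysomes, against 1949, 1597 and 1684 in monosomes, and did not overlap. The log2 difference was -1.64 (SE 0.36, limma adjusted p = 0.00231). Both calls were lost without replicate 1, with an adjusted p of 0.0828 for MRL and 0.0989 for heavy over monosome, and PFDN1 did not pass when the summed share in polysomes replaced MRL (adjusted p = 0.111).

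PFDN2 and PFDN6, the β-type subunits that prefoldin shares with the URI1 complex, had the highest MRLs among the β-type mRNAs. PFDN2 had MRLs of 2.82, 2.64 and 3.29, on both sides of the median gene, and its log2 difference was -0.12 (limma adjusted p = 0.332). Its largest share was in light polysomes, at 42.7 ± 4.21%, beside 31.8 ± 9.61% in monosomes and 25.5 ± 5.55% in heavy polysomes. PFDN2 had normalized counts of 2254, 2131 and 3492 in heavy polysomes, against 3211, 4063 and 2357 in monosomes. These ranges overlapped, and the log2 difference of -0.29 did not pass (SE 0.38, limma adjusted p = 0.540).

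PFDN6 was the exception among the 8. Its MRLs were 3.51, 3.76 and 4.48, higher than those of 83.0% of kept genes by mean, and its log2 difference from the median gene was 0.30 (SE 0.09, limma adjusted p = 0.0301). Of its signal, 17.1 ± 10.4% was in monosomes, 35.0 ± 8.79% in light polysomes and 47.9 ± 11.1% in heavy polysomes, so it was the only member with its largest mean share in heavy polysomes. PFDN6 normalized counts were 825, 832 and 1514 in heavy polysomes, against 427, 462 and 149 in monosomes. Every heavy library was above every monosome library, with a log2 difference of 1.71 (SE 0.46, limma adjusted p = 0.00745). Gradient 3, with the low monosome value, contributed most: without it the difference was 0.90 with an adjusted p of 0.200, and the MRL difference was 0.20 with an adjusted p of 0.296.

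Annotated neighbours bear on PFDN6 in particular. The combined transcript models of PFDN6 share 226 exon bases with WDR46 and 724 with RGL2, both on the opposite strand, although its principal transcript shares 0 with either. WDR46 had an MRL of 4.44 ± 0.34 and a mean normalized count of 408, RGL2 an MRL of 3.19 ± 0.16 and a mean normalized count of 144, and PFDN6 a mean normalized count of 727. Whether counting used the strand is not given in the sources used here, and the part of these neighbours in the PFDN6 values was not tested. The principal transcripts of PFDN1, PFDN2 and UXT share 37 bases with CYSTM1, 26 with NIT1 and 151 with the antisense gene UXT-AS1, so reads from these stretches are likewise uncertain.

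**Figure D2:**
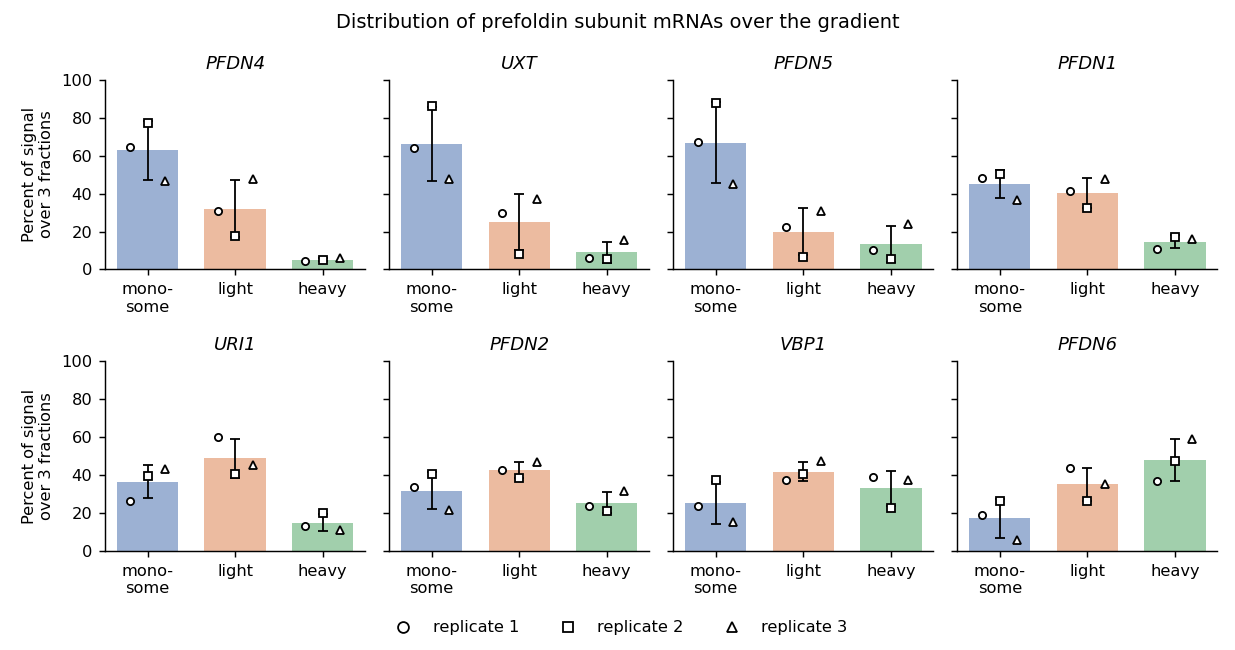
Share of each mRNA's normalized signal (percent of the sum over the 3 fractions of a gradient, y axis) in monosomes, light and heavy polysomes (x axis), as mean bars with SD and a symbol per gradient. The heavy share was 5.19% for PFDN4 and 47.9% for PFDN6, and replicate 2 had the highest monosome share in every mRNA except URI1.

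The α-type subunits of prefoldin differed from each other. PFDN5, known also as a protein that binds the transcription factor MYC, had MRLs of 1.85, 1.38 and 2.66. Its log2 difference from the median gene was -0.74 (SE 0.16, limma adjusted p = 0.00719). On average 66.8 ± 21.3% of its signal was in monosomes, 19.9 ± 12.4% in light polysomes and 13.3 ± 9.48% in heavy polysomes, and gradient 2 alone gave 87.9%, 6.41% and 5.73%. Monosomes held the largest share of its scaled signal in all 3 gradients despite the wide SD. In gradient 3 its reads before scaling were 2515 in monosomes, 3696 in light and 2491 in heavy polysomes. PFDN5 normalized counts were 1302, 711 and 2146 in heavy polysomes, against 8541, 10908 and 4061 in monosomes. The ranges did not overlap, and the log2 difference was -2.52 (SE 0.56, limma adjusted p = 0.00244).

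VBP1, named for its binding to the von Hippel-Lindau tumour suppressor, lay near the typical mRNA. Its MRLs were 3.51, 2.73 and 3.58, and the log2 difference from the median gene was 0.04 (SE 0.11, limma adjusted p = 0.788). Its largest share was in light polysomes (41.8 ± 5.20%), beside 25.2 ± 11.2% in monosomes and 33.0 ± 9.07% in heavy polysomes. VBP1 normalized counts were 3321, 1891 and 3435 in heavy polysomes, against 2001, 3123 and 1384 in monosomes, with gradient 2 running opposite to the others. The log2 difference was 0.44 (SE 0.40, limma adjusted p = 0.384), and without replicate 2 it was 1.02 with an adjusted p of 0.00563.

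Of the prefoldin-like pair, UXT stood beside PFDN4 and PFDN5. UXT, a small protein also studied as a cofactor of transcription factors, had MRLs of 1.76, 1.39 and 2.32 and a log2 difference from the median gene of -0.83 (SE 0.14, limma adjusted p = 0.00239). Its signal was 66.1 ± 19.5% in monosomes, 25.0 ± 14.9% in light polysomes and 8.96 ± 5.54% in heavy polysomes. UXT normalized counts were 406, 333 and 849 in heavy polysomes, against 4133, 5482 and 2638 in monosomes. The heavy libraries were all below the monosome libraries, with a log2 difference of -3.00 (SE 0.52, limma adjusted p = 0.000541).

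URI1, the scaffold of the prefoldin-like complex and a binding partner of the RNA polymerase subunit POLR2E, was low in heavy polysomes without being a monosome mRNA. Its MRLs were 2.57, 2.61 and 2.24 and its log2 difference from the median gene was -0.36 (SE 0.10, limma adjusted p = 0.0160). The largest mean share of URI1, 48.7 ± 10.2%, was in light polysomes, beside 36.4 ± 8.80% in monosomes and 14.8 ± 4.56% in heavy polysomes. URI1 normalized counts were steady in heavy polysomes, at 876, 783 and 848, against 1751, 1547 and 3263 in monosomes. The log2 difference was -1.31 (SE 0.41, limma adjusted p = 0.0177). These calls were the least firm of the 6: the adjusted p was 0.0802 for MRL and 0.101 for heavy over monosome without replicate 1, and 0.0848 and 0.191 without replicate 3. URI1 also did not pass with the summed share in polysomes in place of MRL (adjusted p = 0.501) or with fraction weights of 1, 2 and 3 (adjusted p = 0.0577).

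Between heavy polysomes and monosomes, 6 of the 8 mRNAs passed the threshold, 5 lower in heavy polysomes and 1 higher, where 49.1% of all kept genes passed, 24.4% lower and 24.7% higher. The median log2 difference of the members was -1.47, against 0.13 for all kept genes. PFDN4, UXT and PFDN5 passed in MRL and in this contrast whichever replicate was left out.

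From monosomes to light polysomes, PFDN5 and UXT were lower in the light fraction, where 18.7% of all kept genes passed the threshold with 10.2% on the lower side and 8.47% on the higher side. PFDN5 had normalized counts of 2842, 796 and 2759 in light polysomes, below each monosome value given above, and a log2 difference of -1.97 (SE 0.56, limma adjusted p = 0.0248). UXT had 1904, 529 and 2051, and a log2 difference of -1.62 (SE 0.52, limma adjusted p = 0.0438). Both were lowest in light polysome replicate 2, as were PFDN1, PFDN2, PFDN4, PFDN6 and URI1. Neither PFDN5 nor UXT passed without that library (-1.37 with a limma adjusted p of 0.0578 for PFDN5, -0.98 with 0.106 for UXT). PFDN6 then passed on the higher side (1.60, limma adjusted p = 0.0213, against 1.26 and 0.0703 with that library). Without the whole of replicate 2, PFDN5 passed at a smaller difference (-1.07, adjusted p = 0.0288), UXT did not pass (-0.74, adjusted p = 0.102), and VBP1 (1.17, adjusted p = 0.00536) and PFDN6 (1.89, adjusted p = 0.00365) passed on the higher side. Without replicate 1, neither PFDN5 nor UXT passed (adjusted p of 0.104 and 0.128), and UXT did not pass in edgeR (adjusted p = 0.0655).

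From light to heavy polysomes, PFDN4, URI1 and PFDN1 were lower in the heavy fraction, where 32.2% of all kept genes passed the threshold and 17.5% did so on the lower side. PFDN4 had normalized counts of 480, 302 and 693 in heavy polysomes, against 3334, 1063 and 5410 in light polysomes, a log2 difference of -2.52 (SE 0.52, limma adjusted p = 0.00712). URI1 had 876, 783 and 848 in heavy polysomes, against 3974, 1591 and 3420 in light polysomes, a log2 difference of -1.74 (SE 0.41, limma adjusted p = 0.00935). PFDN1 had 434, 544 and 730 in heavy polysomes, against 1668, 1018 and 2183 in light polysomes, a log2 difference of -1.47 (SE 0.36, limma adjusted p = 0.0103). The ranges of these 3 did not overlap, and neither did those of PFDN2, which did not pass. How often such ranges are apart over all kept genes was not counted. UXT had a log2 difference of -1.39 that missed the threshold (adjusted p = 0.0550), and PFDN5 had -0.55 (adjusted p = 0.460). UXT passed with TMM scaling (adjusted p = 0.0482), in edgeR (0.0349) and in DESeq2 (0.010). It also passed without light polysome replicate 2 (-2.02, adjusted p = 0.00131) and without the whole of replicate 2 (-1.75, adjusted p = 0.000642). Without replicate 2, PFDN4, URI1 and PFDN1 passed as well (-2.88, -2.10 and -1.76), and PFDN2 did so at -0.71 (adjusted p = 0.0484, against -0.76 and 0.131 with it). PFDN4, URI1 and PFDN1 did not pass without replicate 1 (adjusted p of 0.140 for PFDN4, 0.215 for URI1 and 0.263 for PFDN1) or without replicate 3 (0.0659, 0.0999 and 0.115), where the numbers called among all kept genes were 0 and 1 against 4097. The differences of PFDN4, URI1 and PFDN1 themselves were then -2.39, -1.52 and -1.24 without replicate 1, and -2.30, -1.60 and -1.42 without replicate 3. Whether PFDN5 and UXT differ from PFDN4, URI1 and PFDN1 in the fraction where the difference lies was not tested.

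**Figure D3:**
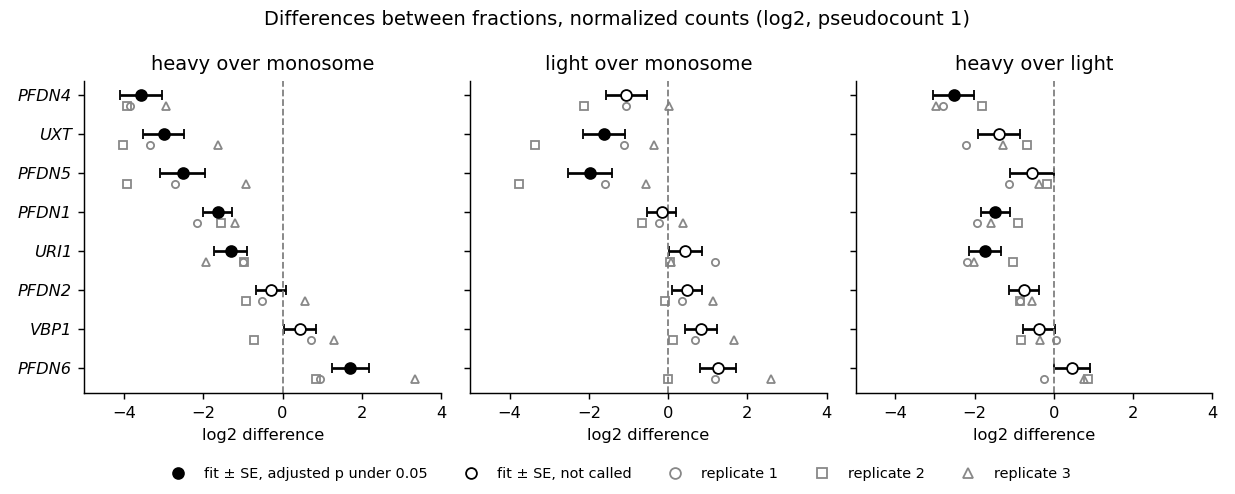
Log2 difference of normalized counts (x axis) between heavy polysomes and monosomes, light polysomes and monosomes, and heavy and light polysomes for each mRNA (rows), with the fitted value ± SE in black (filled where the adjusted p was under 0.05) and the difference in each gradient in grey. In heavy over monosome, PFDN4 was lowest at -3.58 and PFDN6 highest at 1.71. In light over monosome, replicate 2 lay furthest left for every mRNA shown.

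Short coding sequences hold few ribosomes, and 7 of the 8 mRNAs are short: the coding lengths of the hexamer subunits run from 369 nt (PFDN1) to 594 nt (VBP1), UXT has 474 nt and URI1 1608 nt. Over all kept genes the median MRL was 1.99 at up to 300 nt, 2.29 at 301 to 400 nt, 2.56 at 401 to 500 nt, 2.81 at 501 to 600 nt and 3.30 at 1001 to 2000 nt. Each member was therefore set beside kept genes, other than the members, whose coding length was within 10% of its own. These values describe positions in the distribution and were not tested.

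PFDN6, with 390 nt and 129 residues, is short and had a high MRL for its length. The part of the overlapping genes WDR46 and RGL2 in this value was not tested. Its MRL of 3.92 was above those of 338 of 339 genes of like length, whose median was 2.39 and whose middle range (25% to 75%) was 1.96 to 2.77. The gene above it was SNCB, at 4.12. In gradients 1, 2 and 3 it exceeded 325, 338 and 339 of them, so the position did not come from gradient 3 alone.

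PFDN4, UXT and PFDN5 had low mean MRLs for their length as well. PFDN4, with 405 nt, was above 14.4% of 341 genes (median 2.40), UXT above 9.88% of 425 genes (median 2.59) and PFDN5 above 15.5% of 427 genes (median 2.59). PFDN5 and PFDN2 have the same coding length of 465 nt, and their mean MRLs were 1.96 and 2.92, with PFDN2 higher in each gradient. PFDN5 was however above 206 of the 427 in gradient 3, compared with 45 and 30 in gradients 1 and 2. UXT was above 120 of the 425 in gradient 3, compared with 40 and 31. PFDN4 was above 82 of the 341, compared with 40 and 53.

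The remaining members were nearer to their length class, except URI1. PFDN1 lay at the middle, above 53.0% of 283 genes (median 2.30). PFDN2 was above 67.2% of 427 genes and VBP1 above 66.7% of 691 genes. URI1, the long member, was above 17.4% of 1505 genes, whose median was 3.30, so its low load came with a coding length at which most mRNAs were loaded more heavily. Its principal transcript has a leader of 297 nt with 2 upstream ATGs, where the median leader of kept genes was 187 nt and 50.7% had at least 1 upstream ATG. Of the other members, PFDN4 had 3 upstream ATGs and VBP1 had 4, with mean MRLs of 1.74 and 3.27. The rest had 0, with mean MRLs from 1.82 (UXT) to 3.92 (PFDN6). Any link between leader and load was not tested.

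**Figure D4:**
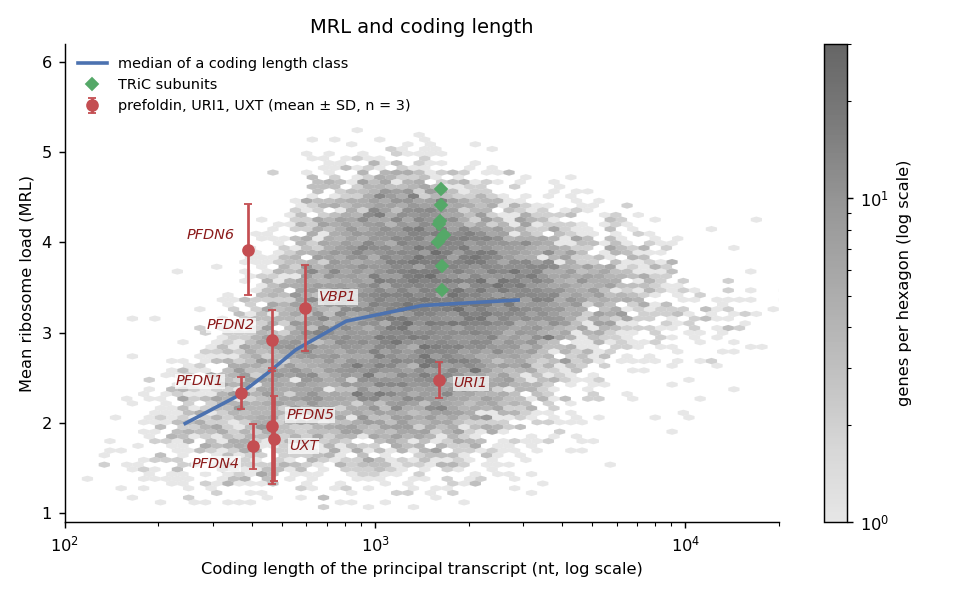
Mean ribosome load (score, y axis) against coding length (nt, log x axis) for kept genes (grey hexagons, darker with more genes), with the median of each length class as a blue line, TRiC subunits as green diamonds and the 8 mRNAs in red (mean ± SD, n = 3 gradients). PFDN6 lay far above the line at 390 nt, PFDN4, UXT and PFDN5 below it near 400 to 500 nt, and URI1 below it at 1608 nt.

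Prefoldin contains a single copy of each subunit, but the mRNA levels were not equal. The normalized counts were summed over the 3 fractions of a gradient and divided by the length of the principal transcript. This level per kb was 19378 ± 3539 for PFDN5, 15074 ± 1070 for PFDN2, 10642 ± 865 for UXT, 6428 ± 2029 for PFDN4, 5163 ± 256 for VBP1, 2946 ± 546 for PFDN6, 2911 ± 537 for PFDN1 and 1747 ± 544 for URI1 (SD, n = 3). Within the hexamer the highest was 6.66-fold above the lowest, and PFDN6 and PFDN1 were not separated. PFDN5 had the highest level per kb and the second lowest MRL of the hexamer, and PFDN6 a low level and the highest MRL. PFDN2 and PFDN1 did not follow that pattern. PFDN2 had the second highest level with an MRL of 2.92, and PFDN1 the lowest level by mean with an MRL of 2.33. The level also rests on the length used: PFDN5 has 586 nt in its principal transcript and 3380 nt in its combined models. Since every fraction was scaled to the same typical gene, the summed count is not the amount of mRNA in the cell.

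The partners of prefoldin were set beside it as lists taken from textbook knowledge. The 8 TRiC subunits, with coding lengths of 1596 to 1671 nt, had a median MRL of 4.11 ± 0.03, where the 6 hexamer mRNAs had 2.65 ± 0.28 (SD of the list's median between the 3 gradients, as for the other lists). CCT7 was highest at 4.59 ± 0.51 and CCT3 lowest at 3.48 ± 0.11. In MRL 7 of 8 TRiC mRNAs were higher than the median gene and 0 lower, and in heavy polysomes over monosomes 6 were higher and 0 lower (median log2 difference 1.53). For the hexamer these counts were 1 higher and 3 lower of 6 in MRL and the same between heavy polysomes and monosomes (median -0.97). Of all kept genes, 22.0% were higher and 24.7% lower in MRL, and 24.7% higher and 24.4% lower between heavy polysomes and monosomes, so the 1 higher hexamer mRNA is no more than that background.

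Of 7 prefoldin-like and R2TP partners kept, 4 were higher in MRL and 0 lower (median MRL 3.72 ± 0.15), with RUVBL1 highest at 4.84 ± 0.43 and PIH1D1, an R2TP adaptor, lowest at 2.83 ± 0.31. The 3 phosducin-like cofactors of TRiC had a median MRL of 4.23 ± 0.46, 2 of them higher and 0 lower, with PDCL at 4.31 ± 0.52 and PDCL3 at 3.52 ± 0.43. The tubulin cofactors, which act on tubulin after TRiC, were mixed: of 6 kept, 2 were higher and 1 lower, with TBCB at 4.15 ± 0.88 and TBCA at 2.01 ± 0.06, a median of 3.16 ± 0.23. TBCA, at 327 nt, is also the shortest of that list.

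Of 11 genes of the tubulin and actin families, whose proteins prefoldin delivers, 6 were higher in MRL and 0 lower, and 7 were higher and 0 lower in heavy polysomes over monosomes (median log2 difference 1.43). Their median MRL was 4.04 ± 0.63, with TUBG1 (γ-tubulin) highest at 4.56 ± 0.74 and ACTG1 (γ-actin) lowest at 3.27 ± 0.81. Reads of the close tubulin and actin copies may have been shared between them in counting. No test was made of a list against prefoldin, and the lists differ from it in coding length.

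**Figure D5:**
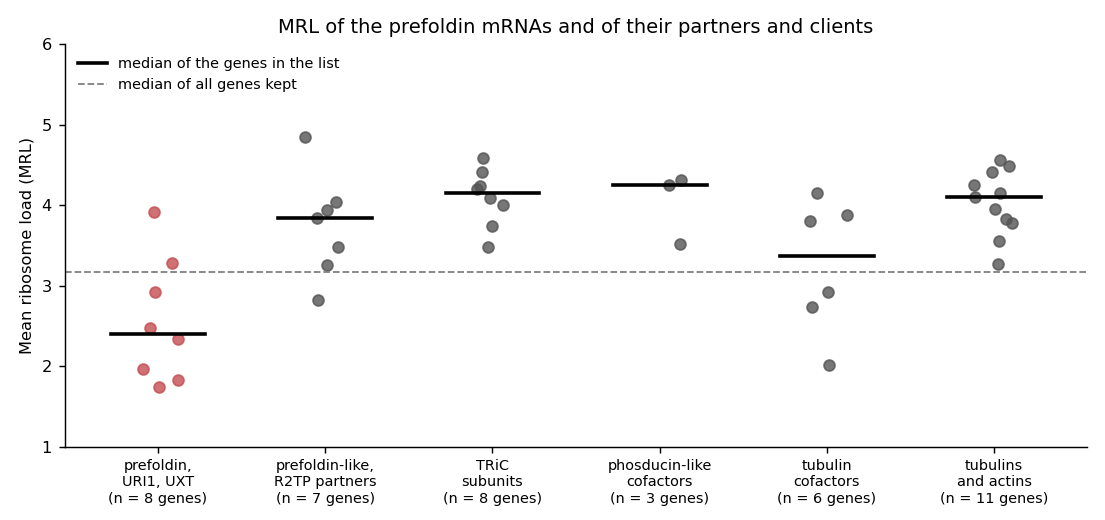
Mean ribosome load (score, y axis) of single mRNAs (points, mean of 3 gradients) of prefoldin with URI1 and UXT in red and of its partner and client lists in grey (x axis), with the median of the genes in each list as a bar and that of all kept genes as a dashed line. The 8 members had a median of 2.40 and the TRiC subunits one of 4.14, and PFDN6 at 3.92 was the member that reached the TRiC range of 3.48 to 4.59.

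The kept genes with the most similar distribution were found for the members at both ends, as the smallest distance over the 9 percentages. RPS27L, which encodes a protein related to ribosomal protein S27, was nearest to PFDN4 at 5.23 percentage points, then GNG5, a G protein γ subunit, at 9.34 and ETFRF1 at 10.4, where the median of all other kept genes was 86.6. Their MRLs were 1.72 ± 0.22, 1.80 ± 0.21 and 1.67 ± 0.23, and all are short, with coding lengths of 255, 207 and 273 nt. Near PFDN6 were KALRN at 13.2 percentage points and PLD3 at 13.4, where the median was 56.4. These have coding lengths of 8961 and 1473 nt, and KALRN had a mean normalized count of only 22.7.

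In the authors' deposited table, the leading fraction was monosome for PFDN4, UXT, PFDN5 and PFDN1, light polysome for URI1, PFDN2 and VBP1, and heavy polysome for PFDN6. The authors' deposited table placed PFDN5 and UXT in a strict monosome class, put URI1 in light polysomes under its relaxed class, and left the other 5 mixed. Of all 13661 genes, 1549 were in the strict monosome class and 810 in the relaxed light polysome class. Under the relaxed rule 8843 were mixed, so the mixed class was the most common one. The polysome enrichment in the authors' deposited table, on a log2 scale with no stated formula, ran from -1.06 for PFDN4 to 0.49 for PFDN6, in the same order as the MRL.

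The positions of the genes on GRCh38 (GENCODE 29) are given for reference with the files' identifiers. PFDN1 (ENSG00000113068) lies on chromosome 5 from 140245039 to 140303121 on the minus strand, PFDN2 (ENSG00000143256) on chromosome 1 from 161100556 to 161118111 on the minus strand, and PFDN4 (ENSG00000101132) on chromosome 20 from 54207847 to 54228052 on the plus strand. PFDN5 (ENSG00000123349) lies on chromosome 12 from 53295291 to 53299450, PFDN6 (ENSG00000204220) on chromosome 6 from 33289302 to 33298401 and URI1 (ENSG00000105176) on chromosome 19 from 29923644 to 30016608, all on the plus strand. VBP1 (ENSG00000155959) and UXT (ENSG00000126756) are on chromosome X, from 155197007 to 155239817 on the plus strand and from 47651798 to 47659161 on the minus strand.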

How the data were processed

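Polysome fractions of HEK293 cells were sequenced as single-end reads of 75 nt, per the labels. Per the submitters' processing notes, featureCounts assigned reads to genes on GRCh38; neither the aligner nor the use of strand is given in the sources used here. In the deposited signal, the reads of a gene stand divided by a factor for its library, since whole reads were recovered for 100% of values at a tolerance of 0.01 reads. The deposited percent values divide this signal over the fractions of a gradient and were recomputed to within 5.5e-08. The deposited MRL is a score, recomputed to within 4.13e-09. The authors' polysome enrichment is on a log2 scale. The deposited fold changes and p-values carry no stated contrast and were not used.

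Of 13661 genes, 941 with a mean under 10 reads or no reads in a gradient were left out. The design had been written for counts, percentages or normalized values, and normalized counts were found. limma 3.58.1 (R 4.3.3, trend) was fitted to all kept genes: to log2 MRL minus the median gene of each gradient, and to log2(normalized count + 1) of 9 libraries with fraction as the term, which understates the change of low genes. Tests were two-sided, with Benjamini-Hochberg adjustment over 12720 genes and a threshold of 0.05. Alternatives used edgeR 4.0.16 (quasi-likelihood) and DESeq2 1.42.0 on the recovered reads, a replicate block, other pseudocounts, scalings and weights, no filter, and each replicate left out. Replicate numbers pair the fractions, because the labels give a number the same batch. Deviations of same-numbered libraries correlated at -0.539 to 0.391 (9 pairs, median 0.097). Those of libraries with different numbers correlated at -0.447 to 0.394 (18 pairs, median -0.0205). These correlations do not show the pairing, which rests on the labels and on the deposited percent values. The fitting steps were tested on simulated data. Gene models were GENCODE 29 (13658 identifiers matched). The text names all 8 members, the highest and lowest gene by mean MRL of each partner list, and the 3 nearest genes of the members with the highest and lowest MRL; SNCB and overlapping genes were named after their values were seen. Another of the nearest genes is not reported here. Members and lists were chosen with earlier results of these data known. ERCC spike-ins, named in the labels, are not used here.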

Additional observations from a re-analysis of the deposited data

How the results depend on the processing

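The fit with a replicate block changed no call of a member between fractions: members called stayed at 6 for heavy over monosome, 2 for light over monosome and 3 for heavy over light. MRL is formed within a gradient, so the block does not apply to it. For PFDN4, UXT and PFDN5 the calls in MRL and in heavy over monosome held under every alternative run. Over the members' single values, 290 of 328 kept their direction and side of the threshold, 23 lost and 10 gained a call, and 5 changed sign, none of them a called value: VBP1 in MRL (-0.034 to 0.17 with replicates left out in turn), PFDN2 in heavy over monosome (-0.72 to 0.028) and PFDN1 in light over monosome (-0.44 to 0.075, and 0.14 without light polysome replicate 2). With replicates left out in turn, members called ranged from 4 to 6 in MRL, 4 to 7 in heavy over monosome, 0 to 3 in light over monosome and 0 to 5 in heavy over light. Over all kept genes these ranges were 3422 to 7264, 3137 to 7814, 562 to 4507 and 0 to 7651, against 5937, 6246, 2380 and 4097 with all libraries. Beside the limma count of 0 genes in heavy over light without replicate 1, 2490 genes had an unadjusted p under 0.05 (2 of the 8 members), and with all libraries edgeR called 4263 genes and DESeq2 4908. In light over monosome, edgeR called 1 member (PFDN5), and without light polysome replicate 2 limma called 1 (PFDN6); without that library heavy over light gave 6423 genes. With members called at 0 in heavy over light without replicate 3, 4 had an unadjusted p under 0.05, and with 0 in light over monosome without replicate 1, 3 did. The cause of these changes was not tested. Counting error weighs most on PFDN6, whose lowest library held 92 reads.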
